A study of Mus musculus with 34 samples.

Results

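The genes of the AMPA and kainate receptor subunits were followed in ribosome footprints and RNA of mouse hippocampus, in controls and at 4 times after contextual fear conditioning. Members were taken by gene symbol: Gria1, Gria2, Gria3 and Gria4 for the AMPA receptor, and Grik1, Grik2, Grik3, Grik4 and Grik5 for the kainate receptor. Of these 9 genes, 5 have a row in both tissue tables, which list 11531 genes. They are the 5 kainate receptor genes (RefSeq NM_146072, NM_010349, NM_001081097, NM_175481 and NM_008168, from Grik1 to Grik5). The 4 AMPA receptor genes have no row in any table used here and are not analysed here, so the values below are of kainate receptor subunits and of proteins that serve either receptor.

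AMPA and kainate receptors are glutamate-gated cation channels built of subunits around a common pore. AMPA receptors carry most fast excitatory transmission, and their number at synapses is adjusted during learning. Kainate receptors act on both sides of the synapse: in the hippocampus they are known for the slow postsynaptic current and presynaptic control at mossy fibre synapses, where dentate granule cell axons meet CA3 pyramidal cells. Grik1, Grik2 and Grik3 encode GluK1, GluK2 and GluK3, which can form channels without other subunits. Grik4 and Grik5 encode GluK4 and GluK5, the high-affinity subunits, which reach the membrane as working channels only together with a GluK1, GluK2 or GluK3 subunit.

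Ribosome-protected mRNA fragments (footprints, RPF) count ribosomes on an mRNA, and RNA libraries measure the mRNA itself. All mice were of strain C57BL/6N. Conditioned mice explored a chamber for 148 s, received a foot shock of 2 s, and hippocampi were frozen 5, 10 or 30 min or 4 h later; control hippocampi came from mice labelled as having had no stimulus. Each of these 5 groups had 3 replicates of RPF and 3 of RNA, but the labels do not say whether replicates are separate mice or pools. The p-values therefore reflect the variation among these libraries alone, part of which may be technical. Hippocampal primary culture, and embryonic stem cells (ESC) of line A3-1 taken 48 h after a siRNA against luciferase, which is a control siRNA, had 1 RPF and 1 RNA library each.

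Values are called signal: whole reads divided by a single number per library. Because gene length may or may not be in them, signals of different genes were not compared as amounts. Tissue RPF libraries held 14240563 to 30480009 reads on listed genes and tissue RNA libraries 16814796 to 25515210. Each kainate receptor gene had at least 272 reads in every tissue library of either kind, so counting error was at most 6.06% of a footprint value. All 12 markers of excitatory pyramidal neurons and all 10 of dentate granule cells were listed, against 1 of 10 pluripotency markers. All 10 markers each of astrocytes, oligodendrocytes and microglia were listed too. Having a row therefore does not set hippocampus apart from other brain tissue. Choroid plexus genes, from the epithelium of the neighbouring ventricle, differed with the replicate number: the summed RPF signal of 11 markers averaged 1583, 1375 and 232 in replicates 1, 2 and 3.

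The start regions of 4 of the 5 genes matched the RefSeq promoter table of build GRCm38.p6, and the 120 bases just before each start are shown because they are the promoter sequence nearest to the measured transcripts. They are on the strand of the gene, with each CG dinucleotide in capitals, at chr10:49788755-49788874 (Grik2, minus strand), chr4:125490576-125490695 (Grik3, plus strand), chr9:42944372-42944491 (Grik4, minus strand) and chr7:25072370-25072489 (Grik5, minus strand).
Grik2: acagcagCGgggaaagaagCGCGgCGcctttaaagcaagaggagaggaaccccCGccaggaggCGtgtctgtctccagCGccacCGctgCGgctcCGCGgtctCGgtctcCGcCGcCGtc
Grik3: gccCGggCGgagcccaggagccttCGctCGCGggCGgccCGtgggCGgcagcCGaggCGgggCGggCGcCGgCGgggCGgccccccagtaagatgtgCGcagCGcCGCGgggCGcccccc
Grik4: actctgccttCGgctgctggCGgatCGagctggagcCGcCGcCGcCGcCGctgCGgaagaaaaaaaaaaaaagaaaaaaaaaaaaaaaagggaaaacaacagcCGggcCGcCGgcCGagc
Grik5: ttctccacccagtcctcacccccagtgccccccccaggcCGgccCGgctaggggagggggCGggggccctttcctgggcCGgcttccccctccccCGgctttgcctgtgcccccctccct

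All 4 windows were GC-rich. Over the full window of 300 bases (250 before the start and 50 after it), GC content was 64.7% for Grik2, 82.0% for Grik3, 70.0% for Grik4 and 72.0% for Grik5, against a median of 52.7% over the 32851 windows of the table. They differed in CG dinucleotides: the Grik3 window held 50, that of Grik4 42 and that of Grik2 26, while that of Grik5 held 10, near the median of 7. Motifs of activity-regulated promoters were searched on both strands of the same windows. None of the 4 windows held the letters TGACGTCA (cAMP response element, in 1.79% of all windows), GCGTGGGCG (Egr site, 0.612%), TGANTCA (AP-1 site, 7.81%) or TATAAA (core promoter element, 13.6%).

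The first question was whether any kainate receptor gene changed in footprints, RNA or their ratio after conditioning. None passed the test at any time. Mean footprint signals differed from control by -8.74% (Grik3 at 10 min) to 9.68% (Grik4 at 4 h), and in most cases replicate numbers differed by more than times did. The 3 subunits that can form channels alone are described first.

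Grik2, the subunit of the mossy fibre receptor in CA3, had control footprint signals of 6.63, 5.26 and 6.95 (mean 6.28 ± 0.898, SD, n = 3). At 30 min the 3 libraries stood at 7.45, 6.71 and 6.10 (mean 6.75 ± 0.677), higher than the control of the same number in 2 of 3. The groups overlapped, and the log2 change was 0.09 with a 95% confidence interval of -0.15 to 0.34. At 5 min, 10 min and 4 h the footprint means were 6.68, 6.48 and 6.50. Grik2 RNA was 6.79, 6.11 and 6.97 in control (mean 6.62 ± 0.454), and its means at the 4 times lay between 6.92 and 7.04. Replicate 2 of control was the lowest library of Grik2 in both kinds.

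Grik3 encodes a subunit of low glutamate affinity found at presynaptic sites of mossy fibres. Its control footprint signals were 3.88, 2.95 and 3.49 (mean 3.44 ± 0.467). At 10 min, the time farthest from control, they were 3.38, 3.14 and 2.90 (mean 3.14 ± 0.236), and the groups overlapped. The log2 change was -0.10 (95% interval -0.27 to 0.08). In RNA the value farthest from control was at 5 min, with signals of 3.54, 2.60 and 2.37 against 3.33, 2.71 and 3.32 in control. Replicate 3 was farthest below its control, replicate 2 was slightly below and replicate 1 was above. The log2 change was -0.11, with an interval of -0.36 to 0.14.

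Grik1 encodes the GluK1 subunit, known from interneurons of the hippocampus. Its footprint signals were 1.38, 1.00 and 1.26 in control (mean 1.21 ± 0.195) and 1.36, 1.22 and 1.29 at 4 h (mean 1.29 ± 0.0713). The log2 change of 0.05 had an interval of -0.10 to 0.21. Grik1 RNA had its highest mean at 10 min, with signals of 1.07, 1.03 and 1.37 against 1.03, 0.881 and 1.25 in control. All 3 numbers stood above their control there, and the interval of the 0.07 log2 change, -0.09 to 0.23, included 0.

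**Figure D1:**
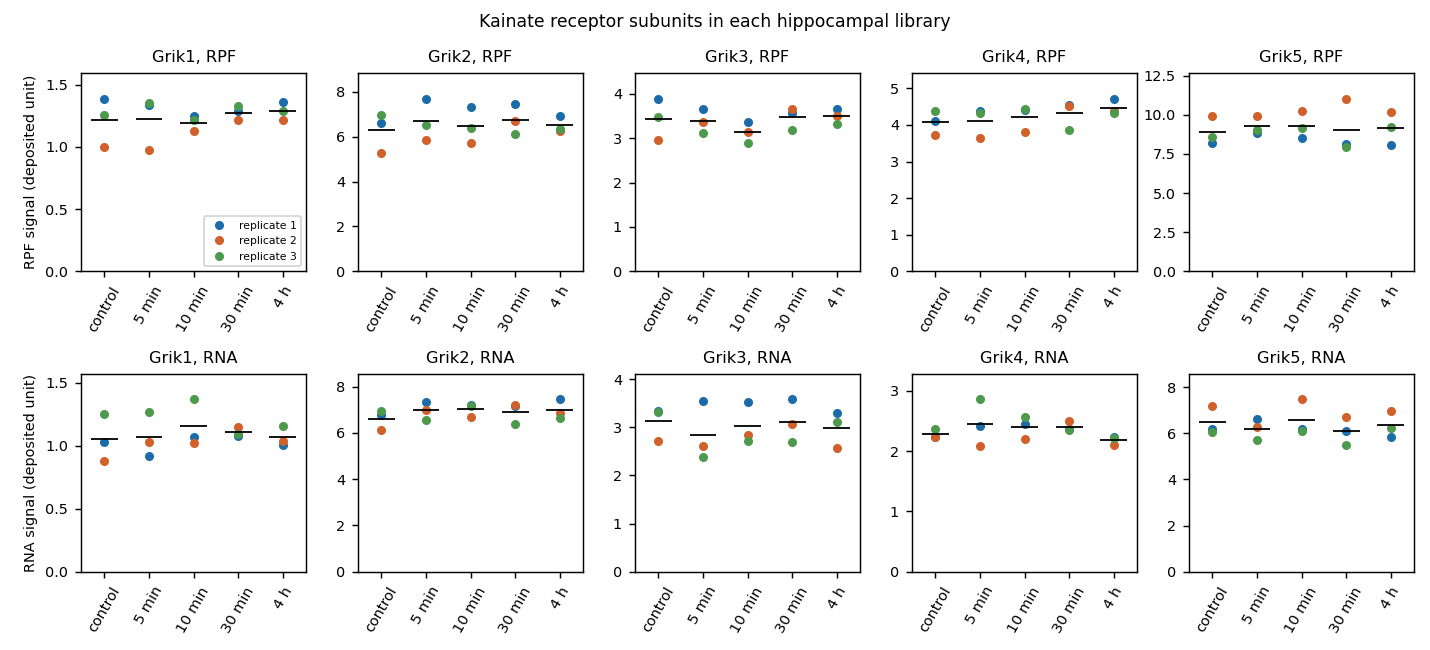
Signal of each kainate receptor gene (vertical axis, from 0, in the deposited unit) in each footprint (top) and RNA (bottom) library of control hippocampus and 5 min to 4 h after conditioning; points are libraries coloured by replicate number and black lines are means of 3. Colours stay apart more than times do: Grik5 footprints of replicate 2 (9.89 and higher) lie above those of the other 2 replicates (7.92 to 9.24) in every group.

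Of the high-affinity subunits, Grik4 had the largest footprint value relative to control. Its control footprint signals were 4.11, 3.72 and 4.39 (mean 4.07 ± 0.337). At 4 h they were 4.71, 4.38 and 4.31 (mean 4.46 ± 0.211), higher than control in 2 of 3 numbers, with replicate 3 slightly lower. The log2 change was 0.11 (95% interval -0.07 to 0.28, unadjusted p = 0.200 by limma). Grik4 RNA at 4 h was 2.23, 2.10 and 2.21 against 2.23, 2.23 and 2.37 in control, so the ratio of footprints to RNA had a log2 change of 0.15 (interval -0.07 to 0.37, unadjusted p = 0.164 by limma). This was the smallest unadjusted p among the 60 tests of the 5 genes, and it did not pass.

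Grik5, the partner of GluK2 in most hippocampal kainate receptors, had control footprint signals of 8.20, 9.89 and 8.57 (mean 8.89 ± 0.890). Its footprint means at 5, 10 and 30 min and 4 h were 9.26, 9.30, 9.02 and 9.17. The 5 min and 10 min libraries were higher than control in 3 of 3 numbers, by log2 changes of 0.06 each, and their intervals reached from -0.20 to 0.31 and from -0.19 to 0.31. Grik5 RNA was 6.20, 7.17 and 6.06 in control, and its lowest mean, 6.10 ± 0.596, was at 30 min, where 0 of 3 numbers were higher than control. That RNA change of -0.08 had an interval of -0.27 to 0.12.

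Counted over the family, 0 of 5 genes were called at any of the 4 times in RPF, RNA or the ratio of both, by limma with Benjamini-Hochberg adjustment over all genes at a threshold of 0.05. The background was the same, 0% of the 7898 genes tested in RPF, of the 8061 in RNA and of the 7103 for the ratio. At an unadjusted p under 0.05, 0 of the 60 tests of kainate receptor genes passed, and limma's voom on whole reads called 0 and also had 0 under that p. Few of all genes had such a p at any time: 20 to 51 of 7898 in RPF, 84 to 209 of 8061 in RNA and 16 to 58 of 7103 for the ratio. The 0 of 60 therefore does not set the family apart. Log2 changes ran from -0.10 to 0.11 in RPF, from -0.11 to 0.08 in RNA and from -0.08 to 0.15 in the ratio. The scale of log2(signal + 1) understates the fold change in signal. On it the 95% intervals of the 5 genes reached from -0.27 to 0.34 in RPF and from -0.36 to 0.25 in RNA. These fits had no block for the replicate number, so differences between numbers stay in the intervals. With the block, intervals of all 5 genes were narrower. Half-widths fell from 0.252 to 0.115 for Grik5 in RPF and from 0.255 to 0.128 for Grik3 in RNA. In footprints, 17 of 20 changes were above 0; the 4 comparisons share their control libraries, so these are not separate counts. The median RPF change of the 5 genes was 0.01, 0.04, 0.04 and 0.05 at the 4 times, beside -0.00 to 0.01 over all genes. The RPF sum of the 12 excitatory neuron markers averaged 455 in control and 474 to 487 at the 4 times, and that of the 11 choroid plexus markers 1394 in control and 849 to 1125; their part in the footprint values was not tested.

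**Figure D2:**
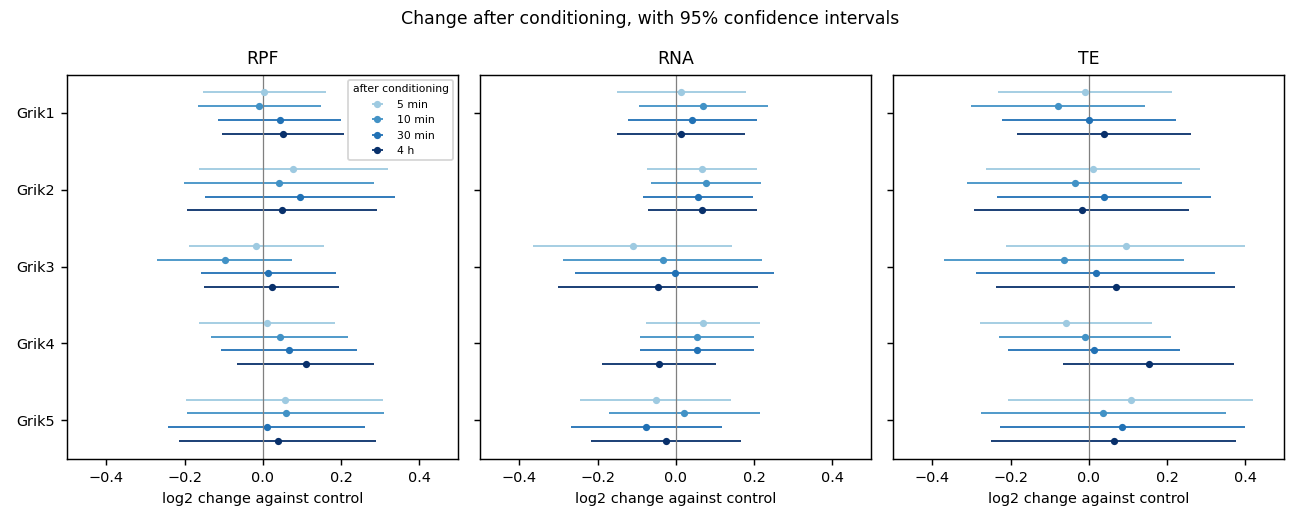
Log2 change against control (horizontal axis, on the scale of log2 of signal + 1) of each kainate receptor gene in footprints, RNA and translational efficiency (TE, the ratio of both) at the 4 times; points are limma estimates from 3 libraries a group and bars are 95% confidence intervals. Every interval includes 0, and the estimate farthest from it is 0.15, for the TE of Grik4 at 4 h. The fits had no block for the replicate number.

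The summed footprint signal of the 5 genes was 23.9 ± 0.953 in control and between 24.3 and 24.9 at the 4 times. To ask whether the mix of subunits shifted within that sum, each gene's share of it was compared with control. Coding lengths were not at hand, so a share here follows gene length as well as abundance and is not a subunit ratio. In control footprints Grik5 made up 37.3 ± 5.23%, Grik2 26.2 ± 2.77%, Grik4 17 ± 0.760%, Grik3 14.4 ± 1.56% and Grik1 5.06 ± 0.667% (SD, n = 3). The largest shift was that of Grik3 at 10 min, -1.48 percentage points to 12.9 ± 0.761%. Across 20 such footprint comparisons the smallest 2-sided exact permutation p was 0.3 (adjusted p = 0.9), where 3 against 3 libraries cannot go below 0.1. The permutations in both kinds of library ignored the replicate number, so differences between numbers stay in the comparison. In control footprints the Grik5 share was 33.9, 43.3 and 34.8% in replicates 1, 2 and 3. In RNA the smallest exact permutation p was 0.1 (adjusted p = 0.933), for Grik2, whose share was 33.9 ± 1.62% in control, 35.7 ± 1.04% at 5 min and 35.2 ± 0.272% at 30 min.

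Subunits differed in how many footprints they carried for their RNA. Baseline translational efficiency was taken in control hippocampus as log2(RPF + 1) minus log2(RNA + 1), after each library was centred on its median gene. It is not a plain ratio, because the added 1 compresses differences at low signals. Gene length would cancel from a plain ratio if both kinds of library were counted alike, but it cancels here only in part. Both high-affinity subunits were high. Grik4 had values of 0.70, 0.57 and 0.70 in the 3 controls, a mean of 0.66 (SE 0.07, 95% interval 0.51 to 0.80, adjusted p = 4.37e-09 by limma). Grik5 had 0.39, 0.44 and 0.46, a mean of 0.43 (SE 0.12, interval 0.19 to 0.67, adjusted p = 0.00199 by limma). Both were above 0 in all 15 tissue pairs of the same group and number. In plain signals, Grik4 footprints in control were 1.79 times its RNA signal and Grik5 footprints 1.37 times.

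The subunits that form channels alone stood near the median gene. Grik1 had values of 0.27, 0.11 and 0.03 (mean 0.14), Grik3 had 0.21, 0.12 and 0.08 (mean 0.13), and Grik2 had 0.01, -0.16 and 0.02 (mean -0.04). None of these 3 was called, and the interval of Grik2 reached from -0.21 to 0.12. With the replicate number as a block, Grik1 was called as well (adjusted p = 0.0116 by limma), at the same mean of 0.14, in a fit that called 47.5% of all genes upward. The block left Grik3 just above the threshold (adjusted p = 0.0502 by limma). Both calls for Grik4 and Grik5 were upward, 2 of 5 genes, where 41.8% of the 7103 genes tested were called upward and 76.6% in either direction, so the share called is near the background. Among all tested genes the percentile of baseline efficiency was 81.3 for Grik4, 71.3 for Grik5, 54.5 for Grik1, 54.3 for Grik3 and 42.8 for Grik2. Over the 3 controls the ranges of Grik4 and Grik5 overlapped neither each other nor those of the other 3 subunits, but differences between genes were not tested.

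**Figure D3:**
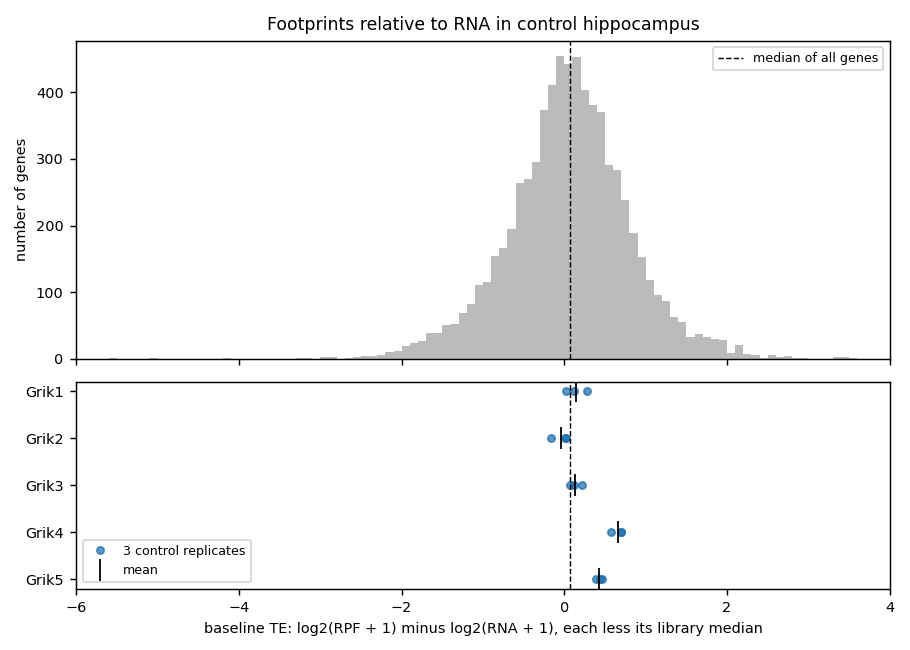
Top, distribution of baseline translational efficiency (log2 scale) over the 7103 genes tested, as the number of genes per bin; bottom, the 3 control replicates (points) and mean (bar) of each kainate receptor gene. Grik4 and Grik5 lie right of the median of all genes (dashed line, 0.06), and Grik1, Grik2 and Grik3 lie around it.

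The spread between the means of the replicate numbers was larger than that between the group means in 9 of 10 combinations of gene and kind of library, the exception being Grik4 RNA. Mean footprints of Grik5 were 8.36, 10.3 and 8.77 in replicates 1, 2 and 3 over the 5 groups, a 1.23-fold spread, against 1.05-fold between the means of the 5 groups. All 5 libraries of replicate 2 lay above all 10 others. Grik2 had the opposite order in footprints, with means of 7.20, 5.96 and 6.46, so its lowest number was the one where Grik5 was highest. Grik1 was low in replicate 2 too (1.32, 1.11 and 1.29), and Grik3 was highest in replicate 1 (3.63, 3.32 and 3.20). Grik4, with means of 4.43, 4.01 and 4.27, was the only kainate receptor gene that did not pass in RPF (adjusted p = 0.0805 by limma).

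By limma's moderated F-test, 4 of 5 genes differed between replicate numbers in RPF, with adjusted p-values from 6.61e-05 (Grik5) to 0.0174 (Grik3), and 73.1% of all genes tested did. In RNA, 3 of 5 did (Grik1, Grik3 and Grik5), and 65.5% of all genes. Both shares are near the background, so the family is not set apart by them. The count rests on single numbers: without replicate 1 it was 1 of 5 in RPF (only Grik5, with 17.1% of all genes called), without replicate 2 it was 2 of 5 (Grik2 and Grik3, with 68.2%), and without replicate 3 it was 4 of 5 (61.1%), with Grik4 in place of Grik3. In RNA it was 2 of 5 without replicate 1 (18.9%), 3 of 5 without replicate 2 (61.5%) and 2 of 5 without replicate 3 (49.4%). Some marker sums moved with the numbers as well. Choroid plexus markers are given above, the RPF sum of 10 oligodendrocyte precursor markers averaged 59.5, 46.4 and 44.0, and that of 10 astrocyte markers 506, 405 and 430. The sum of 12 excitatory neuron markers varied less, at 473, 465 and 483. Its library ranges overlapped, at 453 to 484, 449 to 480 and 463 to 504. No marker listed in the tissue tables was at 0 in any library, and the part of cell makeup in these differences was not tested. In tissue of many cell types, fewer cells of a type and less RNA per cell cannot be told apart.

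In hippocampal primary culture, that is, cells grown outside the animal, all 5 genes were listed too. The culture table was normalised separately, so a signal is read against the median gene, whose culture signal was 0.990 times that of control hippocampus in RPF and 1.01 times in RNA over 6064 shared genes. With 1 library of each kind there is no test, and intervals cover counting error only. Grik2 and Grik3 were low in the culture in both kinds of library. Grik2 had 3.10 in RPF (95% Poisson interval 2.91 to 3.30) and 3.19 in RNA (2.90 to 3.50), or 0.494 and 0.482 times the control means. Grik3 had 395 reads in RPF (signal interval 1.13 to 1.38) and a signal of 1.51 in RNA (1.32 to 1.73), or 0.362 and 0.485 times.

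Grik1 was close to its tissue level, at 1.16 in RPF and 1.18 in RNA. Grik5 diverged between the kinds. Its RNA signal of 7.77 (7.32 to 8.25) was 1.20 times the control mean and above all 3 controls, while its RPF signal of 5.15 (4.90 to 5.40) was 0.579 times and below all 3. Grik4 showed the same pattern to a smaller degree, with RNA of 2.68 (2.41 to 2.96), 1.17 times control, and RPF of 3.21 (3.01 to 3.41), 0.788 times.

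The footprint to RNA ratio of Grik5 was therefore lower in the culture. Centred on the shared genes, it was -0.49 on the scale of log2(signal + 1) against 0.39 to 0.44 in the 3 controls, a difference of -0.90. Among the 6064 shared genes that difference was at percentile 0.610. Grik4 differed by -0.42 (percentile 10.2), from 0.64 ± 0.0772 in control to 0.22. Grik3 differed by -0.26, Grik1 by -0.11 and Grik2 by 0.06. In the culture Grik5 held 47.6% of the summed RNA signal of the family (exact binomial 95% interval 45.5 to 49.6%), and 37.1% of the footprint signal (35.7 to 38.6%). In control hippocampus its share was 33.2 ± 3.85% of RNA and 37.3 ± 5.23% of footprints (SD, n = 3).

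The makeup of the culture differed from the tissue by its markers. In RNA, 12 excitatory neuron markers summed to 153 to 176 in the controls and 93.4 in the culture, where 9 were listed. Interneuron markers, 12 of 14 listed in tissue and 10 in culture, summed to 77.7 to 86.1 and 102. Dentate granule cell markers summed to 49.5 to 51.4 in the controls with all 10 listed, and to 13.4 in the culture with 7 listed. Oligodendrocyte markers summed to 181 to 231 in the controls and to 1.36 in the culture, where 3 of 10 were listed, and 1 of 10 microglia markers was listed there. Astrocyte markers summed to 400 to 550 in the controls and 238 in the culture. The part of cell makeup in the culture values was not tested.

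**Figure D4:**
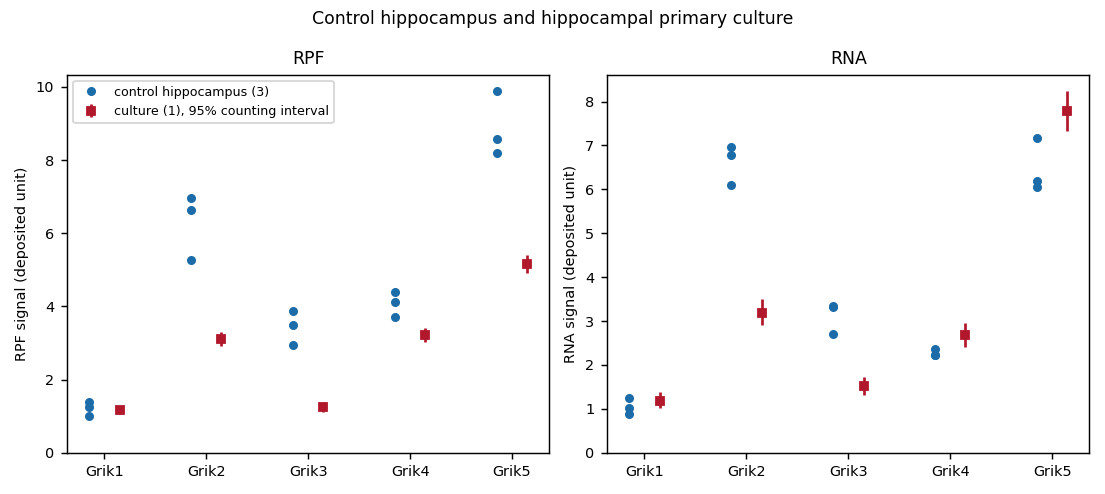
Signal (vertical axis, from 0, in the deposited unit) of each kainate receptor gene in 3 control hippocampus libraries (circles) and in the single culture library (square, bar is the 95% Poisson interval of its reads), for footprints (left) and RNA (right). Grik2 and Grik3 are lower in culture in both panels, whereas Grik5 is lower in footprints (5.15) and higher in RNA (7.77).

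The ESC table, also normalised separately, lists 2 of the 5 genes; its 10 pluripotency markers were all listed and summed to an RNA signal of 353. Grik3 had 1072 footprint reads (signal 1.63, 95% Poisson interval 1.53 to 1.73) and 177 RNA reads (0.823, 0.706 to 0.954). Grik5 had 86 footprint reads (0.131, 0.105 to 0.161) and 49 RNA reads (0.228, 0.169 to 0.301). In ESC, Grik3 footprints were thus at 0.474 times and Grik5 footprints at 0.0147 times their control hippocampus means, where the median shared gene stood at 1.67 times. Grik1, Grik2 and Grik4 have no row there.

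Genes around the 2 receptors were read from 6 lists of 99 genes, of which 95 are in the tissue tables. Over the 12 comparisons of a time with control in RPF, RNA and their ratio, 0 list genes were called without the replicate block (smallest adjusted p = 0.207 by limma). With the block 1 list gene, Arc, was called in RPF and RNA, at 30 min in RPF and at 5, 10 and 30 min in RNA. Of all genes these fits called 4 of 7898 in RPF, and 3, 2 and 2 of 8061 in RNA. In the ratio the block gave 1 called gene, at 5 min, whose name is not given here. The kainate receptor auxiliary subunits Neto1 and Neto2, membrane proteins that slow channel closing and set synaptic placement, had control footprints of 8.06 ± 1.01 and 4.23 ± 0.464. At 4 h they were 8.70 ± 0.603 and 4.58 ± 0.268, not past the test. In baseline efficiency Neto1 was above the median gene, at 0.32 (adjusted p = 0.000252 by limma), and Neto2 below it, at -1.18 (adjusted p = 8.81e-13 by limma). Neto2 therefore stood below each of the kainate receptor subunits, with 0.382 units of footprint signal per unit of RNA signal. Between replicate numbers neither passed in RPF (adjusted p = 0.0684 and 0.529 by limma), though Neto1 did under median-of-ratios scaling (adjusted p = 0.0420 by limma) and without replicate 2 (adjusted p = 0.00541 by limma).

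Of 16 tested AMPA receptor auxiliary subunits, 12 were called above and 4 below the median gene in baseline efficiency, with a median of 0.80 against 0.06 over all genes, of which 41.8% were called above and 34.8% below. Among these 16 the highest was Cacng8, the hippocampal TARP gamma-8 that anchors AMPA receptors, at 2.39. The lowest was Frrs1l, a factor of AMPA receptor assembly in the endoplasmic reticulum, at -1.20. Their control footprint signals were 22.5 ± 1.22 and 11.7 ± 0.600, and at 4 h 24.7 ± 1.68 and 12.5 ± 1.78. The smallest unadjusted p over times in this list were those of Cacng3 (0.533 by limma), a TARP, and Shisa7 (0.572 by limma). Between numbers 10 of 19 passed in RPF, beside 73.1% of all genes, led by Cnih2, an AMPA receptor chaperone with means of 11.1, 13.9 and 14.1, and Prrt1, with 5.77, 7.28 and 6.13. Prrt1 is not among the 16 ranked by baseline efficiency. Its mean RNA signals of 0.148, 0.156 and 0.179 were below the mean of 1 required for that test.

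Of the scaffold and trafficking genes, 21 of 43 tested were called above and 13 below the median gene (41.8% and 34.8% of all genes), with a median of 0.22. The synaptic kinase gene Camk2a was highest (2.33) and the kinesin gene Kif5a lowest (-2.62). Arc, whose protein promotes AMPA receptor endocytosis, had the smallest p over times: its footprint signal was 4.51 ± 0.697 in control, 6.56 ± 1.04 at 10 min, 7.94 ± 0.331 at 30 min and 4.09 ± 0.407 at 4 h. It did not pass without the block (adjusted p = 0.129 by limma's F-test) and passed with it (adjusted p = 6.42e-05). Its RNA signal was 3.58 ± 0.351 in control and 4.74 ± 0.411, 4.93 ± 0.424 and 4.87 ± 0.280 at 5, 10 and 30 min, higher in 3 of 3 numbers each time (adjusted p = 0.0235, 0.00324 and 0.0107 by limma with the block). The next was Homer1, with an unadjusted p of 0.236 by limma. Between numbers 36 of 43 passed in RPF, beside 73.1% of all genes, led by Myo6, a motor of receptor endocytosis, with means of 12, 8.40 and 8.83, and Vps35, of the recycling retromer, with 9.46, 6.00 and 6.90.

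Extracellular organisers gather receptors from outside the cell. Of 16 tested, 12 were called above and 3 below the median gene (41.8% and 34.8% of all genes), with a median of 0.81, from Nptx1 (1.45) to Nlgn1 (-0.66). Nptx2, a pentraxin that binds AMPA receptors, had the smallest unadjusted p over times (0.0189 by limma), with footprints of 4.44 ± 0.200 in control and 5.38 ± 0.507 at 4 h; its adjusted p was 1.00. The next was Olfm2 (unadjusted p = 0.493 by limma). Between numbers 13 of 16 passed in RPF, beside 73.1% of all genes, among them the presynaptic adhesion gene Nrxn3 (32.9, 20.7 and 21.8). Of the NMDA and delta receptor subunits, 3 of 7 were called above and 2 below the median gene (41.8% and 34.8% of all genes), from Grin1 (2.25) to Grin3a (-0.32). Between numbers 7 of 8 passed in RPF (73.1% of all genes), led by Grin2b (34.8, 26 and 24.3) and Grin1 (81.0, 59.9 and 62.3), and the smallest unadjusted p over times was that of Grid1 (0.363 by limma). Of the genes listed for RNA editing, Adar was the only one tested in footprints and in the ratio, and its values do not stand for the others. Adar was at 0.02 in baseline efficiency and had an unadjusted p over times of 0.918 by limma. Its footprints differed between numbers (4.41, 3.31 and 3.36). Of the 8 list genes named as passing between numbers, all but Vps35 lost that call when 1 number was left out. Myo6, Cnih2, Nrxn3, Grin2b, Grin1 and Adar had adjusted p-values of 0.251 to 0.879 by limma without replicate 1. Only 17.1% of all genes were called in that fit, so a call lost there does not set these genes apart. Prrt1 had 0.0565 by limma without replicate 2, where 68.2% of all genes were called.

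Genes whose footprints were most like each member over the 15 tissue RPF libraries were sought after the mean of each replicate number was removed. For Grik1 they were Nde1 (Pearson r = 0.858) and Cacng2 (0.851), for Grik2 P2rx4 (0.938) and Lpcat3 (0.933), and for Grik3 Dpp10 (0.861) and Pcdh7 (0.857). For Grik4 they were Ajap1 (0.914) and Cyb5r1 (0.910), and for Grik5 Cgrrf1 (0.920) and Asph (0.908). These are the top 2 of 7898 genes for each member, over libraries that share number, depth and time, and serve as a description. In RNA the same pairs had r from -0.01 (Grik5 and Asph) to 0.50 (Grik3 and Pcdh7). Without removal of the number means, r ran from -0.20 (Grik4 and Ajap1) to 0.966 (Grik2 and Lpcat3).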

How the data were processed

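The authors deposited, per the file headers, 1 value per gene and library, called signal here; the unit is not named. Each signal proved to be whole reads (within 0.001) divided by 1 number per library, whose meaning is not given. The submitters' processing notes name CASAVA 1.8.2, Bowtie 1.1.1 and build mm9; no label gives a rule for strand or multi-mapping, so reads of antisense or overlapping genes cannot be told apart. The deposited log2 columns were only checked.

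Tests used limma 3.58.1 in R 4.3.3 (eBayes with a trend) on log2(signal + 1), which understates the fold change of low genes, keeping a gene if its mean signal was 1 or more. All 5 groups entered 1 model, with no block and 2-sided tests adjusted by Benjamini-Hochberg at 0.05. TE changes are the interaction of 30 libraries. Exact permutations used scipy 1.17.1 and were not paired by replicate number. The tests were checked on simulated data. Those made for the tests over time and of TE held no difference between replicate numbers, so that check does not extend to data with such differences. Same-numbered libraries deviated together (30 of 30 pairs over 0.1, r from 0.40 to 0.94 in RPF and 0.27 to 0.87 in RNA), so the numbers pair the samples. The 2 planned count-model tests were not run, because the deposited unit is not counts; limma's voom on the whole reads was used instead. The design assumed shares per coding length, but lengths were not at hand. Alternatives were the pseudocount, the filter, scaling, the block and leaving out replicates. All 5 listed members passed the filter in both kinds. Members and lists were chosen with earlier results of these data known. Named list genes were those with the 2 smallest p over times, the 2 smallest between numbers, and the highest and lowest baseline TE; 2 genes this rule names are not reported here. Intervals for single libraries cover counting error only.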

Additional observations from a re-analysis of the deposited data

How the results depend on the processing

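The counts of 0 kainate receptor genes called at each time in RPF, RNA and TE held under every alternative, in 144 counts over 12 comparisons. The alternatives were a pseudocount of 0.1, no filter, median-of-ratios scaling, the replicate block and leaving out each replicate. Voom on whole reads with and without the replicate block (chosen after seeing the data) was run as well. Log2 changes of the 5 genes ran from -0.24 to 0.20 over 720 such values, of which 89 changed sign, none with a call on either side (smallest adjusted p = 0.495). For the pairing by number, the replicate block gave 0 called members at every time and 3 in baseline TE against 2, all upward, where 47.5% of all genes were called upward against 41.8%; it changed no other call of a member. Leaving out a number moved the count of members that differ between numbers from 4 to between 1 and 4 in RPF. In RNA it moved from 3 to between 2 and 3. Fewer libraries enter these fits, which called 17.1% to 68.2% of all genes in RPF and 18.9% to 61.5% in RNA. Median-of-ratios scaling gave 4 in RNA, with Grik4 added, where 5118 of 8061 genes were called. The 2 members called in baseline TE held when centred on the median ratio and without each control replicate. With a pseudocount of 0.1, culture differences were -0.20 for Grik1 (-0.11 as reported), -0.38 for Grik3, -0.54 for Grik4 and -1.02 for Grik5. Shares of AMPA receptor subunits could not be computed, and shares per coding length were not run; shares without each control replicate stayed within 1 SD. The edgeR and DESeq2 alternatives were not run, nor was voom for baseline TE; the median ratio, voom and culture settings were chosen after seeing the data.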
